A study of Microhyla fissipes with 12 samples.

Results

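Late metamorphosis, taken as stages S43 and S45, was set against early metamorphosis, taken as stages S36 and S40, in dorsal muscle of the frog Microhyla fissipes. All 12 RNA-seq libraries of the series took part, 6 late and 6 early with 3 per stage, and they were assigned by their stage labels and not by a measured value. Stage is the only labelled difference, since all libraries are dorsal muscle of tadpoles given spirulina powder. The series calls the libraries of a stage biological replicates, and the sources used here give no age, sex or number of animals per library. The deposited values are FPKM, fragment counts scaled for transcript length and sequencing depth, and cover 468578 unigenes, which are transcripts assembled from reads. Of these, 123813 entered the comparison because 3 or more of the 12 libraries listed them at 1 FPKM or above. The table gives unigene IDs without gene names, so no gene, pathway or fibre type is named, and the labelled tissue was not checked against muscle markers. No file used here holds their sequences.

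Frog metamorphosis is set off by thyroid hormone, which acts through nuclear receptors that switch genes on and off in a tissue-specific way. During its climax some larval tissues are resorbed, while others are rebuilt for life on land. In Xenopus laevis the muscle of the back belongs to the rebuilt tissues: larval fibres are lost and adult fibres with other contractile protein isoforms take over. The comparison addresses how far the muscle's transcripts differ between the sides of that transition, with stage kept as a level within each side. In bulk tissue, fewer cells of a type and less RNA per cell cannot be told apart.

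Some libraries stood apart in ways that touch every result below. S45 replicates 2 and 3 differed by little more than sampling noise: the robust SD of their log2 ratio was 0.266 at a mean FPKM of 10 to 30 and 0.028 at 1000 and over, where noise scaled by the square root of FPKM would give 0.0204. They were counted as 1 sample, which leaves 5 late and 6 early samples. S36 replicate 3 and S40 replicate 1, both early, were the next closest of the 66 pairs. Their SD was 0.302 at 10 to 30 FPKM, against 0.533 to 2.04 in the remaining pairs. At 1000 and over it was 0.0649, against 0.166 to 1.09, where noise would give 0.0192. These libraries stayed separate samples. S36 replicate 1 and S43 replicate 2, on different sides, deviated alike from their stage means (Pearson correlation 0.357). The SD of S43 replicate 2 at 10 to 30 FPKM was 0.932 with S36 replicate 1 and 1.58 to 2.04 with every other library. That pair was kept as separate samples too. S43 replicate 3 and S45 replicate 1 had 56543 and 49802 unigenes at an FPKM of 1 or more outside the largest assembly cluster, while the other 10 libraries had 8388 to 24966.

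The libraries also fell into 2 sets by the spacing of their lowest values, which nearly followed the sides. Where FPKM come from whole fragments scaled in the same way, the ratio of low values between 2 libraries piles up at a fixed step. That pile stood 6.55 to 14.4 times above the median bin in the 21 pairs among the 6 early libraries and S43 replicate 1. It stood 7.03 to 14.0 times above it in the 10 pairs among S43 replicates 2 and 3 and the S45 libraries. In the 35 pairs across these sets the pile reached only 1.64 to 5.39 times the median. The sets were made by average-linkage clustering on this same height, with their number fixed at 2. These ranges therefore describe the split and do not test it. S43 replicate 1 was thus the sole late library that shared the spacing of the early ones, and for S45 the side and the set cannot be told apart. Read counts are unknown, and the position of the pile was not read as depth, since it differed by about a factor of 2 between pairs that should give the same ratio.

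**Figure D1:**
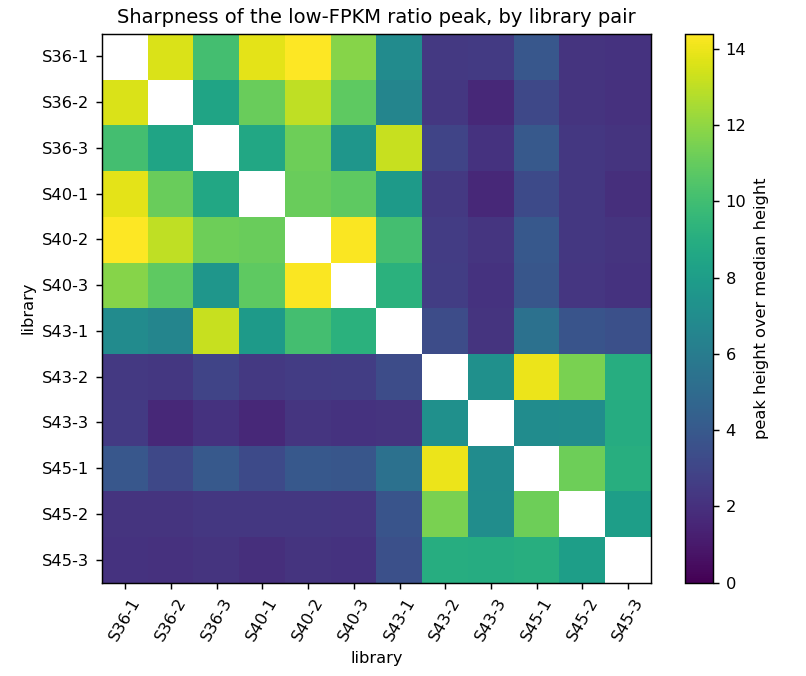
Sharpness of the pile of low-FPKM ratios (height of the highest bin over the median bin) for each pair of the 12 libraries. The bright square of 7 libraries holds S36, S40 and S43-1, the other holds S43-2, S43-3 and S45, and pairs across them stay at or below 5.39.

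Late muscle had 2655 unigenes at higher and 1040 at lower levels than early muscle. These 3695 are 2.98% of those tested (2.14% higher and 0.84% lower). They were called by limma on log2(FPKM + 1), where a Benjamini-Hochberg adjusted p below 0.05 was required together with a difference of 1 or more on the log2 scale. Another 14712 unigenes had a log2 difference of at least 1 upward and 3352 downward without passing the limma test. The called differences were mostly moderate: among higher unigenes 1733 lay between 1 and 2 on the log2 scale, 703 between 2 and 3, 181 between 3 and 4 and 38 above that. Among lower unigenes these numbers were 714, 241, 61 and 24. The largest size was 6.38 upward and 6.95 downward. The median unigene was 0.276 higher in late samples on this scale, and scalings that reduce this shift changed the balance. Median-ratio scaling, with a median of 0.15, gave 1481 higher and 1120 lower, and quantile normalization, with a median of -0.00669, turned it to 1187 higher and 1711 lower. The numbers, though not the presence of both kinds, rested on single libraries. Without S36 replicate 1, 2 or 3 there were 1233, 1149 and 1485 calls, without S40 replicate 1, 2 or 3 there were 927, 1583 and 1143, without S43 replicate 1 there were 8016 and without S45 replicate 1 there were 703. Without the close pair of S36 replicate 3 and S40 replicate 1, 212 were higher and 155 lower. Without S43 replicate 3 and S45 replicate 1, 2269 were higher and 740 lower. With the set of low-value spacing as a further term, chosen after seeing the data, 160 were higher and 16 lower, on 6 residual degrees of freedom. The term can be estimated within S43 alone, from replicate 1 against replicates 2 and 3. Of the 2655 higher and 1040 lower calls, 66 and 13 stayed called with that term, and the medians of these lists were 1.52 and -1.46, against 1.75 and -1.67 without it. These medians describe lists chosen on the same samples.

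**Figure D2:**
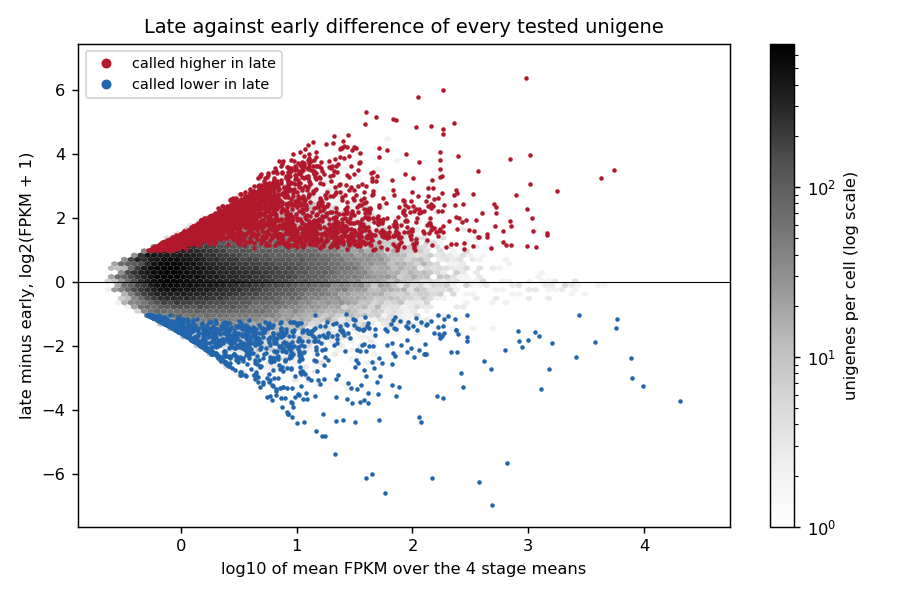
Late minus early difference on the log2(FPKM + 1) scale (vertical) against mean FPKM (horizontal, log10) for the 123813 tested unigenes, with grey cells shaded by number. Red points are the 2655 called higher and blue points the 1040 called lower by limma, with the largest differences at 6.38 upward and 6.95 downward.

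In most called unigenes, lower and higher, the libraries of the sides did not overlap. Of the lower unigenes 859 had every late library below every early library, which is 82.6% of the 1040, and 330 were listed at 0 in all 6 late libraries. Of the higher unigenes 1416, or 53.3%, had every late library above every early one, and 804 were listed at 0 in all early libraries. Among all tested unigenes 1.16% had late libraries all below and 2.39% all above the early ones, 3.54% together. Of the 123813 tested, 6680 were listed at 0 in all early libraries and 1052 in all late ones. Since the calls rest on these same libraries, the shares describe the lists and are no further test. By a stricter count, 52 tested unigenes were listed at 0 in every early library and had at least 1 FPKM in every late one, and 181 were listed at 0 in every late library and had at least 1 FPKM in every early one. With at least 10 FPKM these numbers were 0 and 9. A unigene at 0 throughout a side could pass the FPKM filter only through the other side. All these counts of zeros therefore describe the lists and test nothing. A listed 0 can also be a failed estimate in such an assembly.

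Unigenes named by ID had to be called, without overlap between the libraries of the sides. Their lack of overlap was thus a condition of the choice and is no result. The unigene with the largest rise was Cluster-199519.75953. It had 5524, 1154 and 786 FPKM in the S43 libraries and 714, 1858 and 1863 in the S45 libraries, against 3.06, 4.47 and 18.1 in those of S36 and 15.2, 60.7 and 53.7 in those of S40. The lowest late library was thus far above the highest early one. Its mean was 77.6-fold higher in late samples (log2 difference 6.38 ± 0.62 SE, limma adjusted p = 0.0013), and the adjusted p was 0.029 with the spacing set as a term. Its stages within a side were not called apart, with limma adjusted p = 0.82 for S45 against S43 and 1 for S40 against S36. The latter contrast splits the close pair, S36 replicate 3 at 18.1 FPKM and S40 replicate 1 at 15.2. The remaining libraries had 3.06 and 4.47 FPKM at S36, against 60.7 and 53.7 at S40. Cluster-199519.37043 was close to silent in early muscle, at 0, 1.46 and 1.1 FPKM in the S36 libraries and 0.52, 1.23 and 1.11 in those of S40. In late muscle it had 1542, 398 and 47.3 FPKM at S43 and 14.0, 138 and 125 at S45. Its log2 difference was 6.01 ± 0.83 SE (limma adjusted p = 0.0062). The late libraries themselves differed widely, and S43 replicate 1 stood at the top for both unigenes.

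The unigene with the largest fall was Cluster-199519.119935. It had 23.8, 5.27 and 1.86 FPKM in the S43 libraries and 5.94, 4.86 and 6.54 in those of S45, against 996, 1776 and 548 in the S36 libraries and 646, 681 and 1159 in those of S40. Its mean was 114-fold lower in late samples (log2 difference -6.95 ± 0.51 SE, limma adjusted p = 0.00028). The level was low in every late library, S43 replicate 1 included, and high in every early one, a separation that the choice required. Cluster-199519.113541 was listed at 0 in all 6 late libraries, while it had 46.9, 132 and 292 FPKM in the S36 libraries and 96.7, 60.6 and 66.1 in those of S40 (log2 difference -6.58 ± 0.42 SE, limma adjusted p = 0.00021). With the spacing set as a term the adjusted limma p was 0.039 and 0.036 for these falling unigenes and 0.042 for Cluster-199519.37043, so all 4 named unigenes stayed called. With the term the log2 difference moved to -4.83 ± 0.68 SE for Cluster-199519.119935, 8.49 ± 1.00 for Cluster-199519.75953 and 8.90 ± 1.31 for Cluster-199519.37043. For Cluster-199519.113541, at 0 in every S43 library, it stayed at -6.58 with a larger SE of 0.85. This fit leans on S43 replicate 1, the only late library in the set of the early ones. That library was the highest late one for both rising unigenes and for Cluster-199519.119935, while Cluster-199519.113541 was at 0 in every late library. The fit rests on this single library, and the part of the spacing set in these differences was not tested. In 27 other settings of filter, scaling, model and libraries, Cluster-199519.37043 lost the call in 1 (limma adjusted p = 0.056), and the other 3 stayed called.

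**Figure D3:**
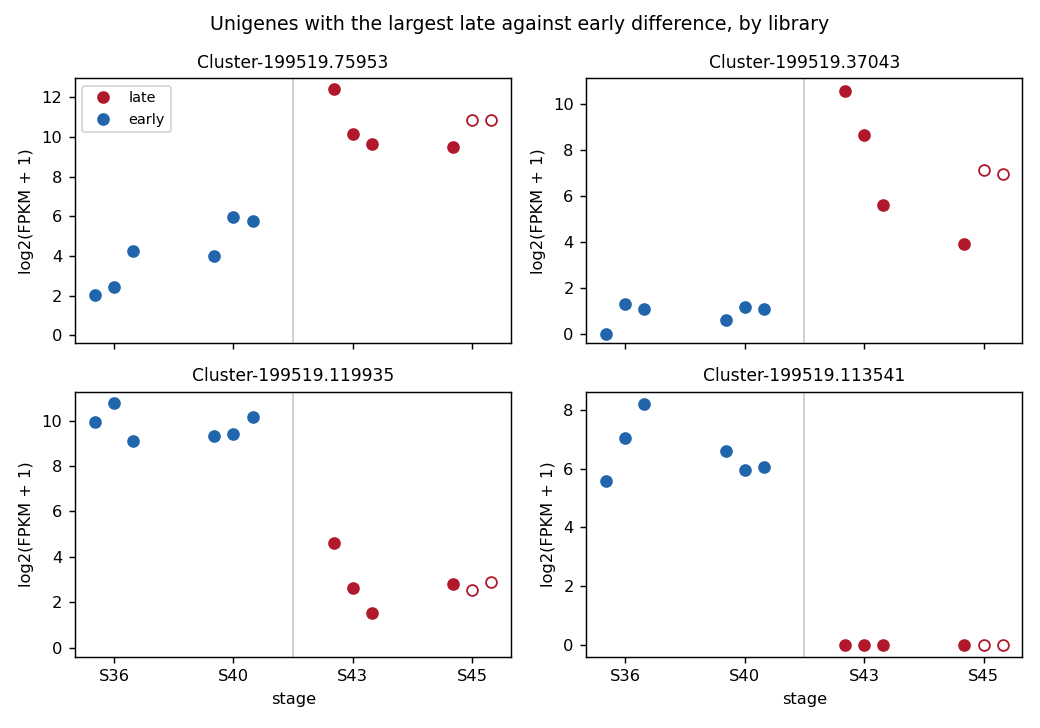
FPKM of the 4 named unigenes as log2(FPKM + 1) in each library by stage, late in red and early in blue, with S45 replicates 2 and 3 as open circles. Only unigenes without overlap between late and early libraries could be chosen, so the separation in each panel was set by the choice. Cluster-199519.113541 is at 0 in all 6 late libraries.

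Calls were more common among abundant unigenes, in both directions. Of the 139 unigenes with a mean FPKM of 1000 or more, 14 were lower (10.1%) and 10 higher (7.19%). From 100 to 1000, 49 of 957 were lower (5.12%) and 109 higher (11.4%). From 10 to 100, 179 of 12874 were lower (1.39%) and 611 higher (4.75%), and below 10, 798 of 109843 were lower (0.726%) and 1925 higher (1.75%). The median log2 difference was -0.102 in the highest class and 0.264 in the lowest. A low unigene has less room for a log2 difference of 1 once 1 is added to its FPKM, so the classes are not equally open to calls.

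Several of the most abundant transcripts of early muscle were at much lower levels in late muscle. The unigene of abundance rank 5, counted by the mean of the 4 stage means, had 6480, 5190 and 2105 FPKM at S43 and 1895, 1544 and 1622 at S45, against 34930, 56224 and 30041 at S36 and 29855, 16914 and 57055 at S40. Its highest late library lay below its lowest early one, and its mean was 10.9-fold lower in late samples (log2 difference -3.69 ± 0.35 SE, limma adjusted p = 0.0012). Rank 9 had 2067, 2423 and 1777 FPKM at S43 and 1127, 1959 and 1942 at S45, against 11932, 23388 and 18713 at S36 and 26694, 8408 and 18060 at S40. Here too the sides did not overlap, with a mean 9.56-fold lower in late samples (log2 difference -3.25 ± 0.29 SE, limma adjusted p = 0.00095). Ranks 11 and 12 fell by 2.99 and 2.38 on the log2 scale (limma adjusted p = 0.007 and 0.011). In both, S43 replicate 1 stood just below the early libraries: rank 11 had 7623 FPKM there and 863 to 2877 in the other late libraries, against 9424 to 19939 in early libraries. Ranks 16 and 17 fell as well, by 1.13 and 1.42 (limma adjusted p = 0.009 and 0.0013). None of these 6 stayed called with the spacing set as a term, where their adjusted limma p lay between 0.086 and 0.73. The size held for rank 9, with a log2 difference of -3.25 with the term. It was reduced to -2.88 for rank 5 and -1.12 for rank 17. The SEs were larger, at 0.60, 0.65 and 0.25 for ranks 9, 5 and 17. For ranks 11, 12 and 16 the log2 difference shrank to -1.15, -0.81 and -0.60. Ranks 5, 9 and 17 stayed called in all 27 other settings, while rank 11 lost the call in 1, rank 12 in 3 and rank 16 in 5.

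The opposite course was rarer at the top. Rank 20 was the sole one of the 20 most abundant unigenes called higher, with 7949, 12207 and 13519 FPKM at S43 and 9505, 5790 and 5800 at S45, against 357, 34.9 and 1678 at S36 and 1793, 2828 and 2334 at S40. The sides did not overlap, but the early libraries spread widely, and the mean was 6.51-fold higher in late samples (log2 difference 3.5 ± 0.75 SE, limma adjusted p = 0.035). It lost the call in 10 of those 27 settings, with an adjusted limma p of up to 0.22, and at 0.66 with the spacing set as a term. The other 13 of the 20 were not called. Among them ranks 7 and 15 had every late library below every early one and missed only the size required, with log2 differences of -0.92 and -0.99 (limma adjusted p = 0.013 and 0.012), and they were called in 2 and 9 of the 27 settings. Rank 1, the most abundant unigene, had 21222 to 34595 FPKM at S43 and 17059 to 21753 at S45, against 28706 to 45575 in early libraries, and the sides overlapped (log2 difference -0.59 ± 0.16 SE, limma adjusted p = 0.073). Rank 10 averaged 7909 ± 1262 FPKM in late samples (SD, n = 5) and 7995 ± 402 in early samples (n = 6), a log2 difference of 0.0088 ± 0.083 SE (limma adjusted p = 0.96). Among the 100 most abundant, 11 were lower and 4 higher, with a median log2 difference of -0.138, against 0.84%, 2.14% and 0.276 over all tested unigenes. The numbers lower and higher became 13 and 3 under median-ratio scaling, 9 and 4 under quantile normalization, 5 and 4 without S36 replicate 3 and S40 replicate 1, and 9 and 0 without S45 replicate 1. Of the 100 unigenes with the highest late means, 80 were also among the 100 with the highest early means.

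Among called unigenes that reached a mean of 1000 FPKM on their higher side, 17 were higher and 20 lower in late muscle. The 10 of each direction with the largest differences included groups that moved almost in parallel. Of these 20, the largest rise alone stayed called with the spacing set as a term. With it the log2 difference was -2.32 for lower rank 8, -2.12 for lower rank 9 and -1.96 for lower rank 10, against -2.34, -2.13 and -2.03 without it. It was 2.73 for higher rank 6 and -1.37 for lower rank 6, against 3.07 and -2.71 without it. The higher unigenes ranked 4 and 5 by size of difference had a Pearson correlation of 0.9989 over the 11 samples on the log2 scale, and their FPKM ratio stayed between 1.05 and 1.37. Those ranked 2 and 3 had 0.9984 and a ratio of 1.08 to 1.84, and those ranked 6 and 8 had 0.9935. Among the lower ones the pair ranked 2 and 3 had 0.9986, with a ratio of 10.6 to 16.9, and ranks 4 and 8 had 0.9938. Several of these calls were fragile: higher ranks 2, 3 and 5 lost the call in 16, 15 and 13 of the 27 settings, and lower rank 1 lost it in 10. The samples shared by each pair include both sides, so a difference between sides alone raises these values, and no test was made. Whether such pairs are pieces of 1 transcript, copies of 1 gene or separate genes is not given by the table, so their FPKM may be split by the authors' counting and they should not be read as independent cases. The higher group was uneven within early muscle: higher rank 7 had 2968, 3721 and 4195 FPKM at S43 and 2941, 1893 and 1883 at S45, against 199, 76.4 and 630 at S36 and 710, 886 and 679 at S40. S36 replicate 2 was its lowest library (log2 difference 2.86 ± 0.43 SE, limma adjusted p = 0.0088). The early mean of lower rank 1, and so its place in this list, came mostly from a single library. It had 7195 FPKM in S40 replicate 1, 566 in S40 replicate 2 and 10.6 to 28.1 in the other early libraries, against 0 to 3.11 in late ones. S36 replicate 3, the library closest to S40 replicate 1, had 24.7.

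**Figure D4:**
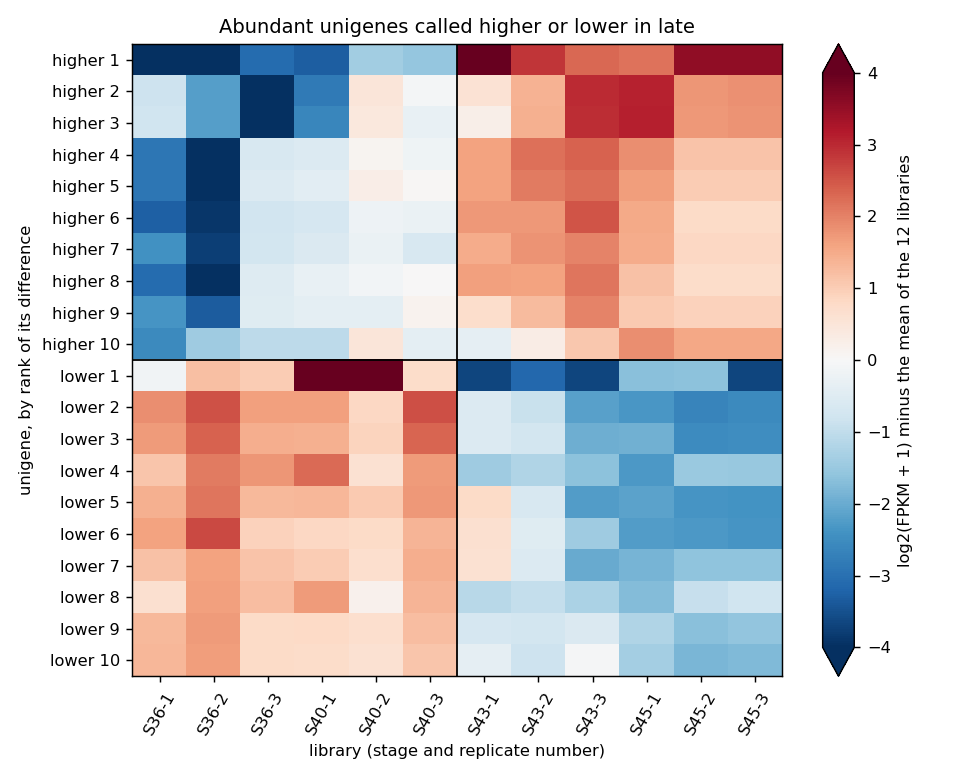
The 10 abundant unigenes called higher and the 10 called lower in late muscle with the largest differences (down, numbered by rank) in each library (across), coloured by log2(FPKM + 1) minus the mean of the 12 libraries. Most lower rows change colour between S40 and S43, while the higher rows are uneven within early muscle. Higher 4, for example, had 34.9 to 1678 FPKM at S36 and 1793 to 2828 at S40, where 1678 and 1793 belong to the close pair S36-3 and S40-1. Higher 2 and 3 are uneven within late muscle too, and lower 1 owes its high early mean mostly to S40-1, with S40-2 next.

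The called lists accounted for a modest part of the messenger pool. Lower unigenes made up 2.41% ± 1.26 of total FPKM in late samples (SD, n = 5) and 12.3% ± 3.21 in early samples (n = 6). Higher unigenes made up 8.0% ± 1.17 in late samples and 2.08% ± 0.743 in early samples. The remaining unigenes held 85.9% to 91.8% in late and 82.0% to 89.2% in early samples. These shares describe lists chosen on the same libraries. Over the whole table, 28.1% ± 6.03 of total FPKM lay in a library's 100 most abundant unigenes in late samples (SD, n = 5) and 41.4% ± 4.74 in early samples (n = 6). The difference of -13.3 percentage points passed a 2-sided exact permutation test over 462 assignments (p = 0.00649). That test counted S36 replicate 3 and S40 replicate 1, the close pair, as separate samples, and it was not run without them. The sides overlapped, as S43 replicate 1 had 37.2% and S40 replicate 2 had 33.5%. With stages as units, 2 against 2 cannot give a 2-sided exact p below 0.333.

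**Figure D5:**
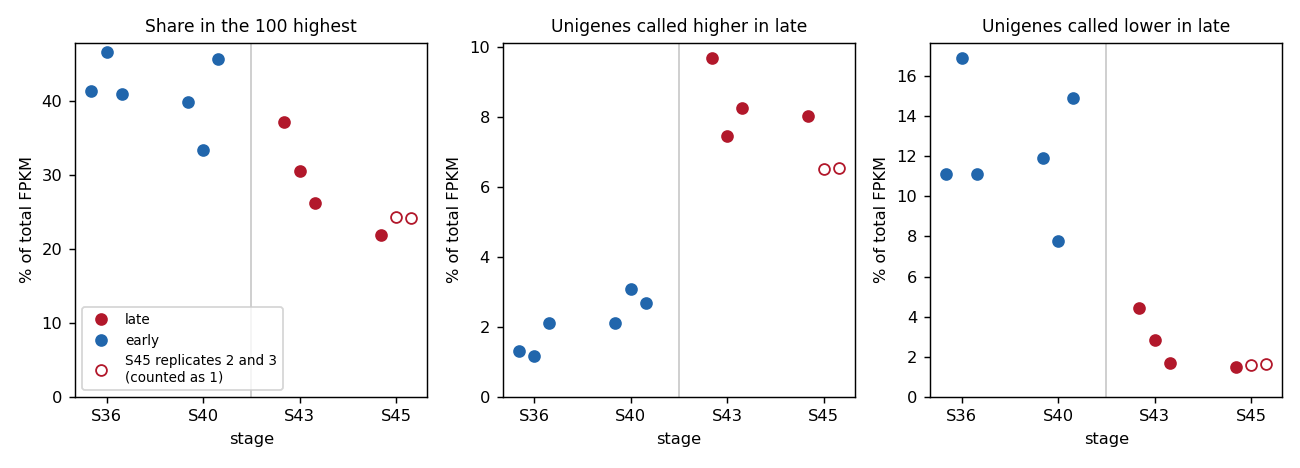
Percent of total FPKM held in each library by its 100 highest unigenes (left), by the unigenes called higher in late muscle (middle) and by those called lower (right), by stage, late in red and early in blue. The share of the 100 highest lies between 21.9% and 37.2% in late and between 33.5% and 46.7% in early samples, and the middle and right panels show lists chosen on these libraries.

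Most called unigenes had both late stages on the same side of both early stages. Among higher unigenes 2497 of 2655 had the means of S43 and S45 both above those of S36 and S40, and among lower ones 1028 of 1040 had both below. Over all tested unigenes these orders held for 42782 and 15576 of 123813. The lists were chosen by the difference of these same stage means. The orders and the list medians below therefore describe the lists and are no further test. Of the higher unigenes, 1739 had their highest stage mean at S45 and 915 had it at S43. Of the lower unigenes, 293 had their lowest stage mean at S45 alone and 416 at S43 alone, and in the other 331 stages tied for the lowest. The median log2 difference of the lower list stood at -1.75 for S43 against S36, -1.66 for S45 against S40 and 0 for S45 against S43. For the higher list these medians were 1.7, 1.92 and 0.41. The median over all tested unigenes was 0.109, 0.439 and 0.38 in the same order.

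Between the late stages, the limma contrast of S45 against S43 called 174 of the 2655 higher unigenes up and 25 down, which is 7.5% of them, and of the 1040 lower unigenes 2 up and 2 down. Over all tested unigenes that contrast called 0.884% up and 0.0436% down, 0.928% together. The lists were chosen in the same fit with the same estimate of spread. Their shares here, and in the tests that follow, describe the lists only. S40 against S36 called none of the higher unigenes and 1 of the lower ones, against 0.00162% of all tested. The close pair, S36 replicate 3 and S40 replicate 1, was split across this contrast, so it added little difference between these stages for most unigenes. Few calls here therefore do not show that S36 and S40 hardly differed. A joint limma F test of both within-side contrasts called 82 unigenes (0.0662% of those tested), of which 61 were in the higher and 5 in the lower list. Unadjusted, 14107 passed 0.05. The number rested on single libraries: it was 2789 without S43 replicate 3, 30 without S36 replicate 1, 27 without S36 replicate 2, 36 without S40 replicate 3, 30 without S43 replicate 1, 38 without S43 replicate 2 and 50 without S45 replicate 1. Without S36 replicate 3 and S40 replicate 1 the limma F test called 0, with 12460 at an unadjusted p under 0.05. A p that misses the threshold does not show that the stages of a side were alike.

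Contrasts that share no library gave overlapping lists. They are not fully separate, since S36 replicate 3 and S40 replicate 1, the close pair of early libraries, fall in different contrasts. All of them also set the early spacing set against late libraries that, apart from S43 replicate 1, belong to the other set. S43 against S36 called 504 unigenes higher (0.407% of those tested) and 298 lower (0.241%, 0.648% together). S45 against S40 called 348 higher (0.281%) and 127 lower (0.103%, 0.384% together). Of these, 49 were higher in both (9.72% of the first list and 14.1% of the second) and 83 lower in both (27.9% and 65.4%), and none was called in opposite directions. In the other arrangement, S43 against S40 called 172 higher (0.139%) and 223 lower (0.18%, 0.319% together), and S45 against S36 called 703 higher (0.568%) and 175 lower (0.141%, 0.709% together). Here 49 were higher in both (28.5% and 6.97%), 90 lower in both (40.4% and 51.4%), and 4 had opposite directions. The contrasts come from 1 fit and share its estimate of spread, and no test of the overlap was made. The numbers called the same way in both, 132 and 139, were 22 to 51 and 21 to 53 without any 1 of the 6 early libraries. They were 205 and 222 without S43 replicate 1, 32 and 34 without S45 replicate 1, and 2 and 4 without S36 replicate 3 and S40 replicate 1 together. Without S43 replicate 2 the second was 83. Of the 3695 calls of late against early, 2531 (68.5%) were in none of the 4 contrasts between single late and early stages, and 102 (2.76%) were in all 4.

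S43 replicate 1 was the one late library inside the spacing set of the early libraries. Unigenes were called again without that library, 6546 higher and 1470 lower, and then read in it. Of the 1470 lower unigenes, 1176 (80.0%) stood below all 6 early libraries in S43 replicate 1, against 18.4% of all tested unigenes. Their median was -1.27 relative to the early mean on the log2 scale, against -0.25 over all tested. Of the 6546 higher unigenes, 2449 (37.4%) stood above all 6 early libraries, against 16.5% of all tested, and their median was 0.00984. The early libraries enter both the call and the reading, this is a single library without a replicate, and no test was made. The part of the spacing set in how S43 replicate 1 differs from the other late libraries was not tested.

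Early libraries were more alike among themselves than libraries of different sides, while late libraries were not by their mean. The Pearson correlation of log2(FPKM + 1) averaged 0.724 for pairs of samples within a side and 0.651 for pairs across sides, which is 0.0727 more within (1-sided exact permutation p = 0.00216, the smallest that 462 assignments can give). It was 0.0694 with only pairs from different stages within a side. Without S36 replicate 3 and S40 replicate 1, the close pair counted as separate samples, it was 0.0395 (exact permutation p = 0.0714). Within late muscle the mean was 0.654, close to the 0.651 across sides, and within early muscle it was 0.771. S45 with S43 averaged 0.648, against 0.689 for S45 with S40. All 6 early samples were on average closer to their own side, against 2 of 5 late samples, S43 replicate 3 and S45 replicate 1. Those are the 2 libraries with many more unigenes outside the largest cluster. All early libraries also share a spacing set, and the part of that set in their likeness was not tested. S43 replicate 1, the sole late library in it, averaged 0.689 with early and 0.661 with late samples. In the other set, S43 replicate 2 had 0.645 and 0.605, and the merged S45 sample 0.722 and 0.683.

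Late libraries listed more unigenes, without passing the test. The number at an FPKM of 1 or more was 105700 ± 32500 in late samples (SD, n = 5) and 76070 ± 7760 in early samples (n = 6; 2-sided exact permutation p = 0.0649). S43 replicate 1 had the fewest of all libraries, 68062, and S45 replicate 1 the most, 140066. Without S43 replicate 1 the difference passed (exact permutation p = 0.0143), as it did without S43 replicate 2 (p = 0.0333, exact permutation test). Inside the largest cluster late samples had 73900 ± 14400 and early samples 64900 ± 5270 (exact permutation p = 0.184). Outside it they had 31800 ± 20200 and 11200 ± 2580 (exact permutation p = 0.00866).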

How the data were processed

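The authors deposited FPKM rounded to 2 decimals, a unit stated in the labels, as a single matrix of 12 libraries. Per the labels' protocols, poly-A RNA was made into paired-end Illumina libraries. For assembly, alignment and counting no tool is named (not given in the sources used here). An FPKM is scaled to the depth of its library, so the values of a library depend on each other. Their total was not fixed: it was 1330000 to 1690000 in late samples and 1220000 to 1320000 in early samples, without overlap. The part of this difference in the upward median and in the balance of calls was not tested.

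The members, lists and tests were chosen with earlier results of these data known. limma 3.58.1 in R 4.3.3 was fitted to log2(FPKM + 1) of 11 samples with stage as the only term and a mean-variance trend. The contrast was the mean of S43 and S45 minus that of S36 and S40, adjusted over all 123813 unigenes. The pseudocount understates differences of low unigenes. The p-values measure the spread between libraries of a stage, which may be technical in part. Whole reads were not recovered, so no count model was used.

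Named unigenes were, in each direction, the 2 largest called differences among unigenes with at least 10 FPKM on the higher side and no overlap. The 20 most abundant, and the 10 of each direction with 1000 FPKM or more on the higher side, are given by rank. Gene lists were not run, as IDs have no names.

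On simulated data for late against early, with 200 of 123813 unigenes changed, the fit recovered 29% at a log2 change of 2 and 86% at a log2 change of 4, and made 3 false calls. Its normal noise was independent for each unigene and sample, without shifts of whole libraries, spacing sets or close pairs. Only unigenes with a mean above 2 on the log2 scale were changed. The false calls therefore do not give the error rate in the real libraries. Low-value spacing used FPKM from 0.2 to 1.5 in bins of 0.02 on the log2 scale. Python 3.11.15 ran numpy 2.4.6 and scipy 1.17.1 for the permutation tests, matplotlib 3.10.9 for plots and pandas 2.3.3 for tables; R read the values through data.table (release 1.17.8). Alternatives covered pseudocount, filter, scaling, variance model, replicate block, thresholds and libraries left out.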

Additional observations from a re-analysis of the deposited data

How the results depend on the processing

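The contrast of late against early gave 3695 calls, and 1191 without a filter on FPKM, 2011 at a mean FPKM of at least 5, and 1248 at a log2 difference of at least 2. Leaving out 1 library gave 703 to 8016, leaving out S36 replicate 3 with S40 replicate 1 gave 367, and leaving out S36 replicate 1 with S43 replicate 2 gave 1312. The term for low-value spacing, added after seeing the data and estimated within S43 alone, gave 176. Of the 2655 higher and 1040 lower calls, 66 and 13 were still called and 2632 and 1040 kept their sign. The lists were chosen by their difference in these same samples, so the kept signs describe the lists and are no further test. Both pseudocounts, both scalings, the variance models, 12 separate libraries, the side as the only term or with stage as a random block, and no fold threshold gave counts within 1.5 times the 3695. The unigenes themselves changed more. Of the 2655 higher and 1040 lower calls, 1175 and 1021 were kept under quantile normalization and 1469 and 976 under median-ratio scaling. The side as the only term kept 1891 and 956, and the robust variance model 2477 and 996.

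The joint test within sides gave 82 calls, and 16 and 43 at pseudocounts of 0.1 and 0.5, 169 without a filter, 2 at a mean FPKM of at least 5, 36 with median-ratio scaling, 33 with quantile normalization and 2058 with 12 separate libraries. Leaving out 1 library gave 27 to 2789. Leaving out a pair gave 0 (S36 replicate 3 with S40 replicate 1), 2937 (S43 replicate 3 with S45 replicate 1) and 0 (S36 replicate 1 with S43 replicate 2; 11176 at an unadjusted p under 0.05 in limma).

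Unigenes called alike in S43 against S36 and in S45 against S40 numbered 132, and 66 without a filter, 47 at a mean FPKM of at least 5, 69 with median-ratio scaling and 389 with 12 separate libraries. With the same pairs left out they numbered 2, 320 and 17, and 22 to 205 without 1 library. For S43 against S40 and S45 against S36 there were 139, and 57 without a filter, 395 with 12 separate libraries, 4, 339 and 16 without the pairs, and 21 to 222 without 1 library.

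The replicate block was fitted to 12 separate libraries. It gave 2929 calls for late against early, 43 in the joint test within sides, and 105 and 77 for the 2 pairs of contrasts, against 5272, 2058, 389 and 395 in the same 12 libraries without the block. The numbers do not pair the libraries, since of 18 same-numbered pairs only 1 had deviations correlated above 0.1 (range -0.228 to 0.119).

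The number of unigenes per library differed by 29600 (late minus early), and by 4891 at 10 FPKM, 29790 with 12 separate libraries, 20590 outside the largest cluster and 21010 to 39010 without 1 library. The first 3 of these alternatives passed the exact permutation test. The share in the 100 highest unigenes passed under every alternative run, at -15.6 to -11.78 without 1 library. Leaving out S36 replicate 3 with S40 replicate 1, or adding the spacing set, was not among the alternatives run for this share. Similarity within minus between sides was 0.0395 without S36 replicate 3 and S40 replicate 1, and 0.0564 to 0.094 without 1 library. For the 25 called unigenes given by ID or rank, 572 of 675 repeats kept the call, 103 lost it and 0 changed direction. These repeats leave out the term for low-value spacing. With that term, only the unigenes named by ID among the 25 stayed called. For the 13 not called, 11 of 351 repeats gained the call, and the sign of the difference turned in 18, spread over 7 unigenes. The cause of these changes was not tested. Depth is unknown, so values near 1 FPKM carry an error that cannot be stated.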

Other observations

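In the assembly, 1 cluster held 224984 of the unigenes, and the next largest held 15. It took up 92.1% ± 4.28 of total FPKM in late samples (SD, n = 5) and 96.3% ± 0.674 in early samples (n = 6). All 4 unigenes named by ID belong to it, as do 79.8% of the tested unigenes, 79.4% of the higher calls and 82.3% of the lower calls. Of the 20 unigenes that were among the 100 highest by late mean but not by early mean, 10 were called higher in late muscle. Of the 20 with the opposite place 7 were called lower. Over all tested unigenes 2.14% were called higher and 0.84% lower. These unigenes were picked by the same late and early means, so the counts describe the choice and are no test.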
